A study of Mus musculus with 4 samples.

Results

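Disulfide isomerases and ER oxidases are described here as 10 genes, chosen by name among the 35275 genes of the deposited count table: the isomerase family members P4hb, Pdia3, Pdia4, Pdia5, Pdia6 and Txndc5, their companion Creld2, the ER oxidases Ero1l and Ero1lb, and the prolyl isomerase Fkbp14. All 10 were found by symbol, each as 1 row, and all 10 passed both filters on low counts: at least 1 CPM (counts scaled to equal library size) in 1 library, passed by 12180 genes, and at least 1 CPM in 2 libraries, passed by the 11760 genes that entered the model described below. The choice by name uses no measured value, although the names were put together with earlier results of these data known.

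Liver RNA was measured in 4 groups of female mice, named for vehicle (V) or fibril (F) and for sedentary (S) or interval exercise training (I, IT): VS, VI, FS and FI. The FS and FI mice had been injected intravenously with AApoAII amyloid fibrils, made of apolipoprotein A-II, whereas the VS and VI mice received vehicle, and the liver was taken at 26 weeks of age after 16 weeks of training or none. All groups carried the amyloidogenic Apoa2c allele: the sample labels give the strain as AKR/J with an Apoa2c congenic genotype, and the methods of the study give R1.P1-Apoa2c on a SAMR1 background. RNA came from 1 pool of liver per group, made of 4 mice each, so that 16 mice gave 4 libraries and no group has a replicate. The vehicle mice carry the allele too, so "amyloidosis" below stands for the fibril groups against the vehicle groups.

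Total counts were between 23442935 (VS) and 28814802 (FS), and a count of 0 allows up to 3 counts, between 0.101 and 0.127 CPM. The 7 hepatocyte markers together gave between 159000 and 180000 CPM, with none at 0. This sum was mostly Alb (between 120000 and 136000 CPM), and single markers differed more. In the order VS, VI, FS and FI, Tat had 940, 2020, 3210 and 5280 CPM and Cyp2e1 11200, 9770, 5990 and 8790 CPM. Of 12 skeletal muscle markers, 1 in VS and in VI, 4 in FS and 8 in FI were at 0, and their summed level was 77.7 and 9.92 CPM in VS and VI, and 0.978 and 0.826 CPM in FS and FI. The 13 macrophage and neutrophil markers summed to 226 and 268 CPM in VS and VI, and 375 and 342 CPM in FS and FI, with at most 2 at 0, and the 9 fibroblast and stellate cell markers to between 145 and 170 CPM with none at 0. Of 12 plasma cell markers, at most 1 was at 0, and their sum of 272, 313, 296 and 338 CPM in VS, VI, FS and FI was mostly Sdc1, which hepatocytes also express. In the order VS, VI, FS and FI, Igkc had 10.4, 7.16, 17.5 and 13.3 CPM and Igha 7.64, 4.98, 14.7 and 13.8 CPM. Ighm, in the same order, had 8.66, 5.76, 8.27 and 6.57 CPM and was highest in VS. Mzb1 had between 0.288 and 0.578 CPM. The part of these other cells in the results below was not tested, and in pooled tissue a change in RNA per cell and a change in the number of cells of a type cannot be told apart.

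Proteins that enter the secretory pathway fold in the lumen of the ER, where cysteines must be joined into the right disulfide bonds. Isomerases of the PDI family make, break and reshuffle these bonds, and the ER oxidases restore the oxidized form of P4HB by passing electrons to oxygen. Prolyl isomerases speed up another slow step of folding, the turn of the peptide bond before proline. Hepatocytes secrete most plasma proteins, and the unfolded protein response (UPR), run by the sensors ATF6, IRE1 and PERK, raises transcription of folding enzymes when unfolded protein accumulates in the ER. Many UPR promoters carry the ER stress response element (ERSE), a CCAAT box placed a fixed distance from CCACG, at which NF-Y binds together with ATF6 or XBP1.

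An ERSE, searched as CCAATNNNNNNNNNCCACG on both strands of the window from 250 bases before to 50 bases after each RefSeq start site (GRCm38.p6, the same build as mm10), was found for 3 of the 10 genes, Creld2, Pdia6 and Ero1lb. The 10 genes matched 13 windows, and of all 32817 windows 39 (0.119%) held an ERSE. The stretch around each of the 3 matches is shown because these genes include the largest fibril ratio among the 10. Each runs 5′ to 3′ in the direction of the gene, capitals mark the ERSE, and all stretches end before the first annotated exon.
Creld2: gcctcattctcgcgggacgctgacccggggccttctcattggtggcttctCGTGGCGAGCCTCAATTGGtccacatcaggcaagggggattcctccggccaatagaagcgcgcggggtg
Pdia6: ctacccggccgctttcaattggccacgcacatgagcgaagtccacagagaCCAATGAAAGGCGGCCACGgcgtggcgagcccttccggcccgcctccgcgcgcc
Ero1lb: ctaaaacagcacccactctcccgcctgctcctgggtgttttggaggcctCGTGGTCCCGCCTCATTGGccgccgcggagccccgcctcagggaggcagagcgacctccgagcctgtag
The Creld2 stretch is chr15:88819470-88819588 (plus strand), with the ERSE on the opposite strand and its first printed base 126 bases before the start site. The Pdia6 stretch is chr12:17266441-17266544 (plus strand), with the ERSE on the same strand, 98 bases before the RefSeq start site. That site, 17266589, lies inside the gene range deposited with the counts, which starts at 17266545. For Pdia3 the RefSeq site, 121413902, also lies inside the deposited range, which starts at 121413775. The Ero1lb stretch is chr13:12565633-12565750 (plus strand), with the ERSE on the opposite strand, 201 bases before the start site. The Creld2 match lies between head-to-head genes: the start sites of Creld2 and of Alg12, a mannosyltransferase of N-glycan assembly, are 328 bases apart, and the windows of both hold the same match. ATTGGNCCACG (ERSE-II, 0.0366% of windows) was found for none of the 10 genes. TGACGTGG (the core of the XBP1 element UPRE, 0.676%) was found for Txndc5 alone, as was TGATGNAA (the C/EBP-ATF element CARE, 3.97%), in different windows. An ERSE read on the opposite strand begins with CGTGG, in which the UPRE core ends, but no match of one motif overlapped a match of another in these windows. Only exact letters counted as a match. A stretch that differs from the ERSE by 1 letter, as occurs in the Pdia3 window, was not counted. A match of letters is a description, and the letters of other elements were not searched.

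The question put to the fibril comparison was how the liver transcriptome differs with amyloidosis. The level of each of the 10 genes was higher in FS than in VS, as it was for 51% of all genes. For 4 genes of the 10 the ratio exceeded 2-fold: Creld2 (6.26-fold), Pdia4 (2.65-fold), Ero1lb (2.42-fold) and Pdia6 (2.02-fold). Of all genes, 3.55% were more than 2-fold higher in FS and 2.24% more than 2-fold lower; none of the 10 was lower by that much. In FI versus VI, 8 of the 10 were higher (50.8% of all genes). The ratio exceeded 2-fold for 2 (Creld2, 3.49-fold, and Pdia4, 2.03-fold), against 2.56% of all genes. None was more than 2-fold lower, against 2% of all genes. With 1 library per group these ratios have no test. The intervals given below for log2 ratios of 2 libraries are 95% Clopper-Pearson intervals for counting error only. The median log2 ratio of the 10 genes was 0.88 in FS versus VS and 0.55 in FI versus VI, where the median of all genes was 0.01 in both. Both fibril libraries lay above both vehicle libraries for 8 of the 10 genes, compared with 23.8% of all genes, and the exceptions were Txndc5 and Ero1l. FS was highest and FI second for 6 of the 10 (P4hb, Pdia3, Pdia4, Pdia5, Creld2 and Ero1lb), compared with 11.9% of all genes.

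**Figure D1:**
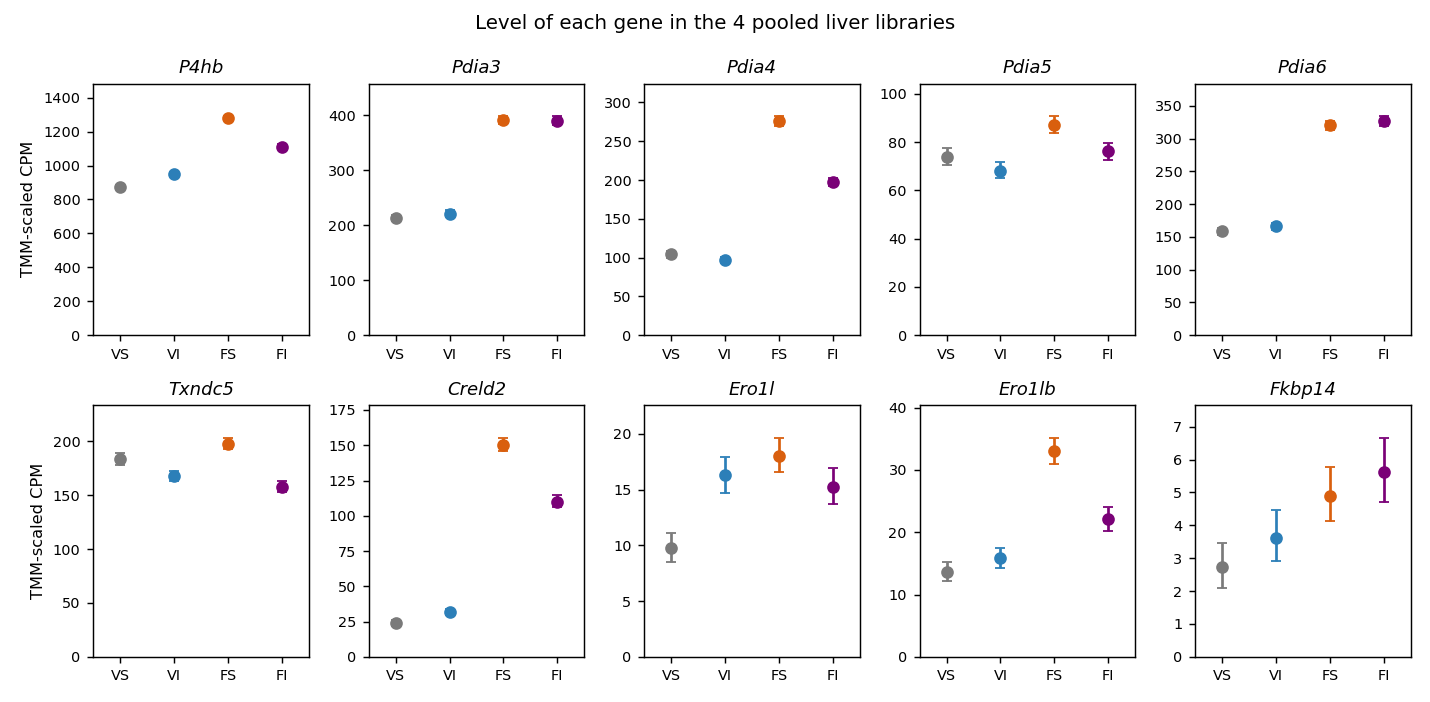
TMM-scaled CPM (vertical axes, each starting at 0) of the 10 genes in the libraries VS, VI, FS and FI, 1 point per pooled library, with bars for the 95% counting interval. Creld2 goes from 24 CPM in VS to 150 in FS and 110 in FI, whereas Txndc5 stays between 158 and 198.

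A model with an additive term for amyloidosis and 1 for IT was fitted to the 4 libraries with edgeR's robust quasi-likelihood method. What is left for the error is 1 degree of freedom, in which unequal IT ratios in vehicle and fibril livers appear. The method moderates the error of each gene with that of all 11760 genes fitted. Each group is 1 pool, so the p-values do not measure the spread between pools, or mice, of the same group. Of the 10 genes, 4 rose with amyloidosis at an adjusted p below 0.05 (Benjamini-Hochberg over 11760 genes): Creld2, Pdia4, Pdia6 and Pdia3. Among all genes fitted 2.82% rose and 2.17% fell, and none of the 10 fell. The median change of the 10 genes was 0.79 on the log2 scale, and that of all genes was 0.01. At an unadjusted p below 0.05 there were 7 of the 10, and 2511 of the 11760 genes fitted. In the same design DESeq2 called 5 of the 10 and 3.99% of all genes in either direction, and limma-voom 5 of the 10 and 5.97% of all genes, both adding Ero1lb. With amyloidosis as the only term, 1 gene of the 10 (Creld2) passed among 8 of all genes, and without the VS library neither any of the 10 nor any other gene passed.

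Among the isomerases, P4hb (ENSMUSG00000025130, chromosome 11, 120560298 to 120573253, minus strand) is the founding enzyme, and its protein is also the beta subunit of collagen prolyl 4-hydroxylase and a subunit of the microsomal triglyceride transfer protein. Its counts were 20640 and 23082 in VS and VI, and 37889 and 26919 in FS and FI, which is 876, 950, 1280 and 1110 CPM. Both fibril libraries were above both vehicle libraries, and all 4 counting intervals were separate. The log2 ratio was 0.55 (0.52 to 0.57) for FS over VS and 0.23 (0.20 to 0.25) for FI over VI. In the additive model the estimate was 0.39 with a standard error (SE) of 0.14 and did not pass (edgeR's quasi-likelihood test, adjusted p = 0.167).

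Pdia3 (ENSMUSG00000027248, chromosome 2, 121413775 to 121438687, plus strand) encodes ERp57, which is brought to glycoproteins by calnexin and calreticulin. Its level was 213 and 221 CPM in VS and VI, and 391 and 390 CPM in FS and FI. The fibril libraries were indistinguishable from each other by counting error, and both were well above the vehicle libraries. The log2 ratio was 0.88 (0.83 to 0.92) for FS over VS and 0.82 (0.77 to 0.86) for FI over VI. Pdia3 rose by 0.85 (SE 0.12) on the log2 scale with amyloidosis (edgeR's quasi-likelihood test, adjusted p = 0.00889). The range listed for Pdia3 overlaps the start of Catsper2 on the other strand, which had between 84 and 165 counts.

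Pdia4 (ENSMUSG00000025823, chromosome 6, 47796142 to 47813512, minus strand) encodes ERp72, an isomerase with an additional catalytic domain. Its level was 104 and 97.3 CPM in VS and VI, and 276 and 197 CPM in FS and FI. The vehicle libraries were close together, and FS stood apart from FI as well as from both vehicle libraries. The log2 ratio was 1.40 (1.34 to 1.47) for FS over VS and 1.02 (0.95 to 1.09) for FI over VI. With amyloidosis Pdia4 rose by 1.21 (SE 0.13), rank 40 of all fitted genes by p (edgeR's quasi-likelihood test, adjusted p = 0.00364).

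Pdia6 (ENSMUSG00000020571, chromosome 12, 17266545 to 17284770, plus strand) encodes P5, an isomerase that associates with the chaperone BiP. It had 159 and 166 CPM in VS and VI, and 321 and 327 CPM in FS and FI. As for Pdia3, the libraries fell into a vehicle pair and a fibril pair, and FI was not below FS. The log2 ratio was 1.02 (0.96 to 1.07) for FS over VS and 0.98 (0.92 to 1.03) for FI over VI, and the interval of each spans the 2-fold mark. Pdia6 rose by 1.0 (SE 0.12) with amyloidosis (edgeR's quasi-likelihood test, adjusted p = 0.0051).

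Pdia5 and Txndc5 had the smallest estimates among the isomerases. Pdia5 (ENSMUSG00000022844, chromosome 16, 35397313 to 35490873, minus strand), an isomerase known to act on ATF6, had 73.8 and 68.2 CPM in VS and VI, and 87.2 and 76.1 CPM in FS and FI. The intervals of VS and FI overlapped, and the estimate with amyloidosis was 0.20 (SE 0.11; edgeR's quasi-likelihood test, adjusted p = 0.336). Txndc5 (ENSMUSG00000038991, chromosome 13, 38500273 to 38528824, minus strand) encodes ERp46, an isomerase with several thioredoxin domains. Its level was 184 and 168 CPM in VS and VI, and 198 and 158 CPM in FS and FI, with FI the lowest library and FS the highest. Its log2 ratio was 0.11 (0.05 to 0.16) for FS over VS and −0.09 (−0.15 to −0.02) for FI over VI, and the estimate with amyloidosis was 0.01 (SE 0.12; edgeR's quasi-likelihood test, adjusted p = 0.97).

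Creld2 (ENSMUSG00000023272, chromosome 15, 88819646 to 88826681, plus strand) encodes a secreted and ER-resident protein with EGF-like domains that acts on disulfides of other proteins. It had 565 and 767 counts in VS and VI, and 4454 and 2671 counts in FS and FI, or 24, 31.6, 150 and 110 CPM. No other gene of the 10 had so large a fold between its highest and lowest library. The log2 ratio was 2.65 (2.52 to 2.78) in FS versus VS, exceeded by 31 of 12180 genes, and 1.81 (1.69 to 1.92) in FI versus VI, exceeded by 59. Creld2 rose by 2.22 (SE 0.20) with amyloidosis (edgeR's quasi-likelihood test, adjusted p = 0.00441). Its neighbour Alg12, which shares the ERSE shown above, had 80 and 87 counts in VS and VI, and 260 and 119 counts in FS and FI, with log2 ratios of 1.36 (FS over VS) and 0.46 (FI over VI).

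The ER oxidases were less abundant. Ero1l (ENSMUSG00000021831, chromosome 14, 45283092 to 45318572, minus strand), the ubiquitous oxidase Ero1a, had 9.76 and 16.3 CPM in VS and VI, and 18 and 15.2 CPM in FS and FI. VS was the low library, and the intervals of VI, FS and FI overlapped. Its log2 ratio was 0.89 (0.66 to 1.12) for FS over VS and −0.09 (−0.30 to 0.12) for FI over VI, and the estimate with amyloidosis was 0.39 (SE 0.24; edgeR's quasi-likelihood test, adjusted p = 0.394). Ero1lb (ENSMUSG00000057069, chromosome 13, 12565883 to 12609526, plus strand), the oxidase Ero1b known from pancreas, had 13.6 and 15.8 CPM in VS and VI, and 33 and 22.1 CPM in FS and FI. FS was the highest library and FI lay between FS and the vehicle pair, whose intervals overlapped.

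For Ero1lb the log2 ratio was 1.27 (1.09 to 1.46) for FS over VS and 0.48 (0.29 to 0.67) for FI over VI. The estimate with amyloidosis was 0.88 (SE 0.20), just outside the threshold (edgeR's quasi-likelihood test, adjusted p = 0.0502), and between 2.47e-07 and 0.0659 under the 8 alternatives that kept both terms. Between 9 and 10 of the 12 pancreas markers were at 0 in each library. The sum over the 12 was 23.3 and 13.5 CPM in VS and VI, and 15.1 and 12.8 CPM in FS and FI. Cela1 made up between 12.2 and 22.8 CPM of it, and Cela2a had 10 and 17 counts in VS and VI, and 76 and 14 counts in FS and FI, so that this marker, like Ero1lb, was highest in FS; its part in the result was not tested. Fkbp14 (ENSMUSG00000038074, chromosome 6, 54577604 to 54597344, minus strand), an ER prolyl isomerase that acts on collagens, was the least abundant gene, with 64 and 88 counts in VS and VI, and 145 and 136 counts in FS and FI. Both fibril counts were above both vehicle counts, and the log2 ratio was 0.84 (0.42 to 1.30) for FS over VS and 0.63 (0.24 to 1.04) for FI over VI. The estimate was 0.74 (SE 0.22) and did not pass (edgeR's quasi-likelihood test, adjusted p = 0.0969). The range of Fkbp14 overlaps that of Plekha8 on the other strand, which had between 309 and 410 counts; the strand setting of the counting is not given.

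**Figure D2:**
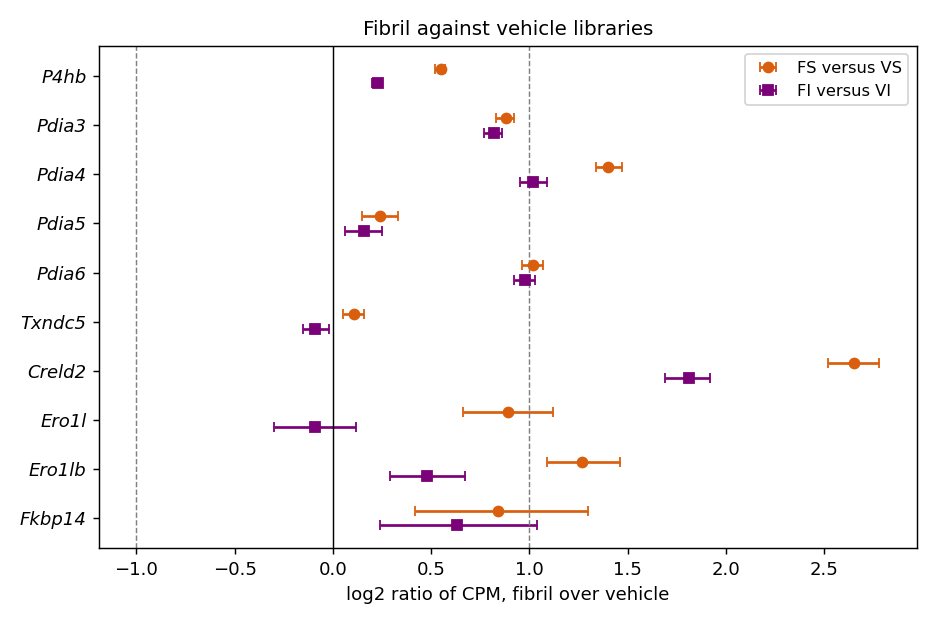
Log2 ratio of CPM (horizontal axis) of FS over VS (circles) and FI over VI (squares) for the 10 genes, with 95% counting intervals as bars and dashed lines at 2-fold. The FI over VI ratio is the smaller of both for all 10 genes, by little for Pdia3 and Pdia6 and by most for Ero1l (0.89 against −0.09).

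Levels of different genes were compared per length, by the deposited FPKM, the CPM of a gene divided by its length in kilobases, without TMM scaling. P4hb was the most abundant in every library, with 308 and 329 FPKM in VS and VI, and 460 and 379 FPKM in FS and FI. Pdia3 (between 77.3 and 145 FPKM) and Pdia6 (between 73.3 and 152 FPKM) came next. Ero1lb (between 3.23 and 8.01 FPKM), Ero1l (between 2.22 and 4.21) and Fkbp14 (between 0.889 and 1.79) were the lowest. The FPKM of the 10 genes summed to 632 and 651 in VS and VI, and 1120 and 927 in FS and FI. Of this sum P4hb made up 48.7% and 50.5% in VS and VI, and 41% and 40.9% in FS and FI. The part of Creld2 was 2.8% and 3.52% in VS and VI, and 10.1% and 8.52% in FS and FI, and that of Txndc5 went from 10.5% and 9.18% in the vehicle libraries to 6.52% and 5.99% in the fibril libraries. Creld2, with 17.7 FPKM, was below Pdia5 (41.1 FPKM) and Txndc5 (66.3 FPKM) in VS and, with 113 FPKM, above both (49.6 and 73.1 FPKM) in FS.

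**Figure D3:**
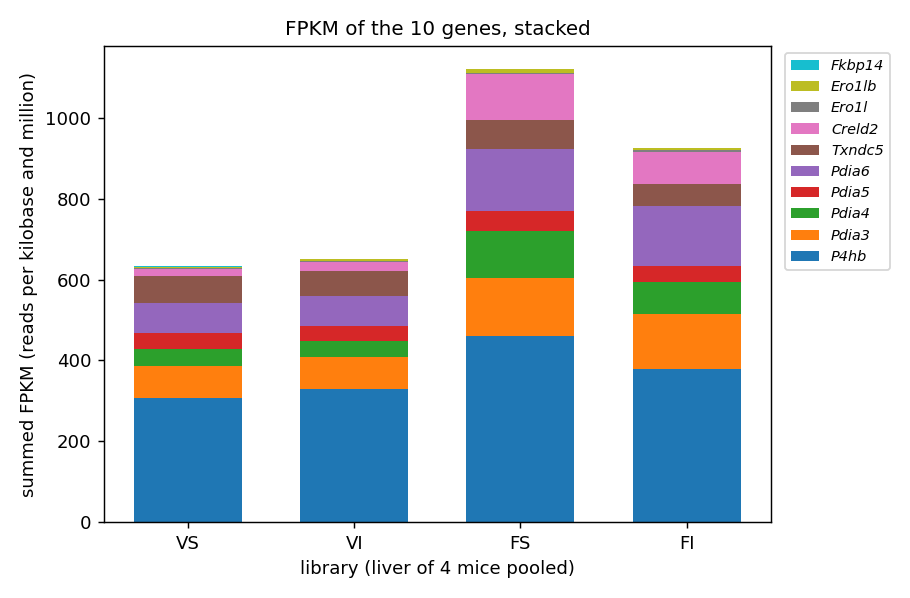
Deposited FPKM of the 10 genes stacked for each pooled library (bars start at 0). The bars reach 632 and 651 in VS and VI, and 1120 and 927 in FS and FI, and the Creld2 segment grows from 17.7 in VS to 113 in FS.

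The IT comparison asked how the liver responds to training in mice without and with amyloid. None of the 10 genes was more than 2-fold apart in VI versus VS, where 1.54% of all genes were higher and 1.9% lower, or in FI versus FS, where 1.76% were higher and 2.46% lower. The median log2 ratio of the 10 was 0.09 for VI over VS and −0.22 for FI over FS. In VI versus VS, 7 of the 10 were higher and 3 lower, where 50.8% of all genes were higher. In FI versus FS, 2 were higher and 8 lower, where 51% of all genes were higher. The 2 higher in FI versus FS were Pdia6 and Fkbp14, both with an interval that includes 0. Pdia6, at 0.03, turned to −0.05 when scaled by total counts. Pdia3, among the 8 lower, had a ratio of 0.00 (−0.04 to 0.04). The ratios in FI versus FS that were farthest below 0 were those of Ero1lb (−0.58, −0.74 to −0.43), Pdia4 (−0.49, −0.54 to −0.44), Creld2 (−0.45, −0.51 to −0.38) and Txndc5 (−0.32, −0.38 to −0.26). In VI versus VS, Ero1l had the highest ratio (0.73, 0.50 to 0.98), followed by Fkbp14 (0.41, −0.07 to 0.90) and Creld2 (0.40, 0.24 to 0.56).

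No gene of the 10 passed for IT in the additive model (edgeR's quasi-likelihood test, adjusted p between 0.347 for Pdia4 and 0.956 for Pdia3), whereas 0.782% of all genes were called higher and 0.714% lower. None had an unadjusted p below 0.05, compared with 1726 of the 11760 genes fitted, and DESeq2 and limma-voom also called 0 of the 10. The estimates lay between −0.30 (SE 0.13) for Pdia4 and 0.29 (SE 0.22) for Fkbp14. A change that runs in opposite directions in vehicle and fibril livers enters the error of this model and not its IT term. The IT log2 ratio in fibril livers minus that in vehicle livers was below 0 for all 10 genes, compared with 50.7% of all genes, with a median of −0.27 (all genes −0.01). It was −0.98 (−1.28 to −0.68) for Ero1l, −0.84 (−1.01 to −0.67) for Creld2 and −0.80 (−1.06 to −0.54) for Ero1lb, where intervals cover counting error only. Of all genes, 3.08% had a lower difference than Ero1l, 4.34% than Creld2 and 4.86% than Ero1lb. For Pdia3 (−0.06, −0.13 to 0.01), Pdia5 (−0.08, −0.21 to 0.05), Pdia6 (−0.04, −0.12 to 0.04) and Fkbp14 (−0.21, −0.78 to 0.36) the interval includes 0. The difference is the same number whether taken between the IT ratios or between the fibril ratios, and the 4 comparisons share libraries pairwise, so that these are not separate observations. Without replicates it was not tested.

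**Figure D4:**
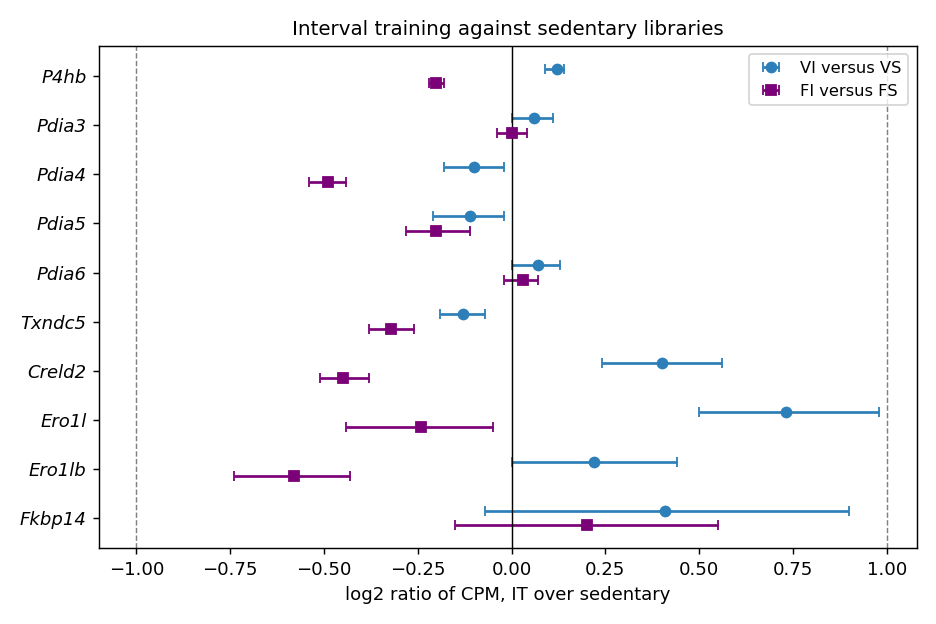
Log2 ratio of CPM (horizontal axis) of VI over VS (circles) and FI over FS (squares) for the 10 genes, with 95% counting intervals as bars and dashed lines at 2-fold. Ero1l, Creld2, Ero1lb and P4hb are above 0 in the vehicle pair and below 0 in the fibril pair, and none of the 10 reaches 2-fold.

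Lists of related genes were compared with the 10. Of 13 other PDI family genes 12 were expressed (at least 1 CPM in 1 library), with a median log2 ratio of 0.20 in FS versus VS and 0.09 in FI versus VI, and 1 rose and none fell with amyloidosis. The riser was Erp27, a family member without a catalytic site, at 13 and 31 counts in VS and VI, and 111 and 95 counts in FS and FI (2.11, SE 0.35; edgeR's quasi-likelihood test, adjusted p = 0.0142). Txndc11, a partner of the DUOX oxidases, had 13.2, 19.1, 32.5 and 23.3 CPM in VS, VI, FS and FI, and Dnajc10, an ER reductase, had 22.4, 34, 47.4 and 36 CPM, and neither passed (edgeR's quasi-likelihood test, adjusted p = 0.114 and 0.217). Creld1 was lower in FS than in VS (log2 ratio −0.35, −0.47 to −0.24) and higher in FI than in VI (0.23, 0.11 to 0.35). Its level was 52.1, 43.9, 40.8 and 51.5 CPM in VS, VI, FS and FI. Of the 12 expressed genes, 10 were higher and 2 lower in either pair, where 51% and 50.8% of all genes were higher. Pdia2, the pancreatic isomerase, had no count in any library.

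Of 10 other ER oxidases and peroxidases 9 were found in the table and 7 were expressed, with median log2 ratios of 0.14 in FS versus VS and 0.00 in FI versus VI, and none passed. In FS versus VS 4 of the 7 were higher (51% of all genes) and 3 lower. The 3 lower were Selm (log2 ratio −1.02, −1.64 to −0.44, with 65 counts in VS and 40 in FS), Gpx7 (−0.48, −0.86 to −0.10) and Gfer (−0.37, −0.51 to −0.23). In FI versus VI these had 0.50, −0.96 and −0.36. Among the higher, the sulfhydryl oxidase Qsox1 had 272 CPM in VS and between 386 and 454 CPM in the other libraries. Its order was that of Ero1l, with VS lowest, then FI, VI and FS. Of 7 other ER prolyl isomerases 6 were expressed, with medians of 0.30 and 0.22. One of them, Fkbp11, rose, with 5.3 and 4.69 CPM in VS and VI, and 23.7 and 12 CPM in FS and FI (1.78, SE 0.21; edgeR's quasi-likelihood test, adjusted p = 0.00606). Ppib, the ER cyclophilin, had 36.5, 41.2, 58.7 and 49.9 CPM (adjusted p = 0.0783 in edgeR's quasi-likelihood test).

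The partners of these enzymes differed among themselves. Calr, the lectin chaperone calreticulin that recruits ERp57, rose with 336 and 316 CPM in VS and VI, and 648 and 585 CPM in FS and FI (0.92, SE 0.13; edgeR's quasi-likelihood test, adjusted p = 0.00763). Canx, its membrane-bound counterpart calnexin, had 233, 234, 289 and 295 CPM and did not pass (adjusted p = 0.16 in edgeR's quasi-likelihood test). Of the genes whose proteins form complexes with P4HB, Mttp had between 237 and 269 CPM with an estimate of −0.04 (SE 0.12), and the collagen hydroxylase subunits P4ha1 and P4ha2 had −0.39 (SE 0.17) and 0.17 (SE 0.21), none of them past the threshold. P4ha3 had 2 counts in VS and none elsewhere. Tapbp, the partner of ERp57 in peptide loading, had −0.24 (SE 0.11) and did not pass. Over the 6 expressed partners the median log2 ratio was −0.13 in FS versus VS and 0.17 in FI versus VI.

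All 8 UPR regulators were expressed and higher in FS than in VS (51% of all genes), with a median log2 ratio of 0.70. In FI versus VI 6 of 8 were higher (50.8% of all genes), with a median of 0.28. With amyloidosis 3 of the 8 rose: Trib3, a target of the PERK branch (1.06, SE 0.18, adjusted p = 0.0148), Xbp1, the transcription factor activated by IRE1 (0.61, SE 0.12, adjusted p = 0.0275), and Atf6b (0.60, SE 0.14, adjusted p = 0.0478), all by edgeR's quasi-likelihood test. Xbp1 had 154 and 141 CPM in VS and VI, and 252 and 199 CPM in FS and FI, with FI between FS and the vehicle pair, the order of Pdia4. Other genes of the PERK branch did not pass (edgeR's quasi-likelihood test): Eif2ak3, which encodes PERK, had 12.3, 16.4, 25.3 and 18.5 CPM in VS, VI, FS and FI (adjusted p = 0.16), and its downstream factors Atf4 and Ddit3 had estimates of −0.09 (adjusted p = 0.752) and −0.02 (adjusted p = 0.971). Atf4 and Ddit3 were also the 2 regulators that were lower in FI than in VI, by log2 ratios of −0.29 and −0.19. Atf6 (0.49, SE 0.13, adjusted p = 0.0656) and Ern1, which encodes IRE1 (0.24, SE 0.11, adjusted p = 0.265), did not pass either (edgeR's quasi-likelihood test).

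**Figure D5:**
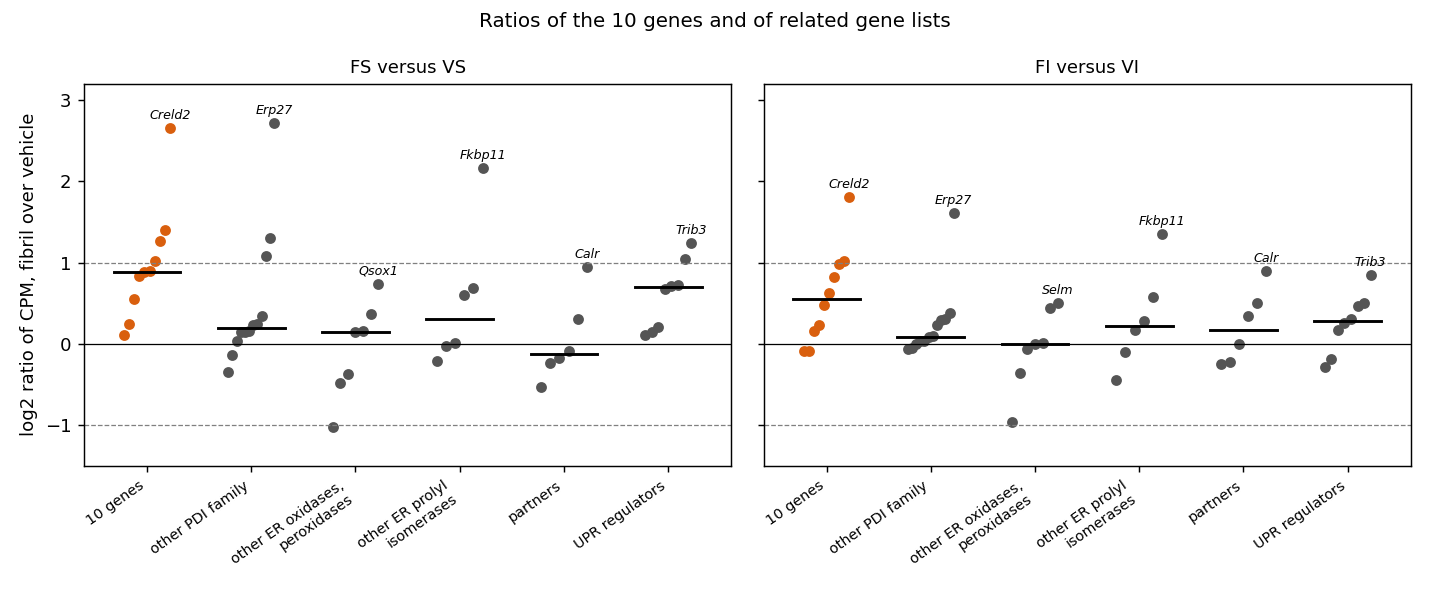
Log2 ratio of CPM (vertical axis) of the 10 genes and of 5 lists of related genes, 1 point per expressed gene, sorted within each list, with the median as a black bar and dashed lines at 2-fold, for FS over VS (left) and FI over VI (right). The median is 0.88 and 0.55 for the 10 genes and 0.20 and 0.09 for the other PDI family genes.

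The ERSE was then looked up beyond the 10 genes, a list chosen by sequence after the ratios of the 10 were known. Of the 37 genes with an ERSE in a window, 30 were matched to the table by symbol, and 14 of these, not counting Creld2, Pdia6 and Ero1lb, were expressed. In FS versus VS 12 of the 14 were higher (51% of all genes), 5 of them by more than 2-fold (3.55% of all genes), with a median log2 ratio of 0.63. The 5 were Derl3 (4.46, from 18 counts in VS to 512 in FS), Hspa5, which encodes BiP (1.90), Syvn1 (1.63), Alg12 (1.36) and Hsp90b1 (1.19). In FI versus VI 11 of the 14 were higher (50.8% of all genes), 3 by more than 2-fold (2.56% of all genes), with a median of 0.72. These 3 were Derl3 (2.71) and 2 genes of low count, Adcy3 (1.53, 8 counts in VI and 24 in FI; −0.28 in FS versus VS) and Xlr3a (1.35, 23 and 59 counts). Hspa5 (0.93), Hsp90b1 (0.93), Syvn1 (0.82) and Alg12 (0.46) were below 2-fold there. For the 257 expressed genes with a CARE match the median was 0.03 in FS versus VS, with 7% more than 2-fold higher. For the 96 with a UPRE core it was 0.16, with 5.21% more than 2-fold higher. The 8 with an ERSE-II had a median of 0.22, with 6 higher and 1 of them by more than 2-fold. Among the 10 genes, the log2 ratios in FS versus VS were 2.65, 1.27 and 1.02 for the 3 with an ERSE and between 0.11 and 1.40 for the 7 without; Pdia4, Ero1l, Pdia3 and Fkbp14 had between 0.84 and 1.40 without a match.

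The mean profile of the 10 genes (log2 CPM centred on each gene's mean over the 4 libraries) was −0.48 and −0.31 in VS and VI, and 0.51 and 0.28 in FS and FI. Pdia3 was the gene of the 10 nearest to it, with a root mean square distance of 0.09, and Creld2 the farthest, at 0.73. Of 9329 other genes with at least 5 CPM in 1 library, the nearest were Lmbrd2 (distance 0.028), Sec24d (0.033), Plxnb1 (0.04), Sec13 (0.041) and Slc20a1 (0.043), where the median gene was at 0.43. Sec24d, a subunit of the vesicle coat that leaves the ER, had 28.2, 32.5, 57.4 and 50.9 CPM in VS, VI, FS and FI. With 4 points per gene, likeness of this kind is a description only.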

How the data were processed

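Liver tissue of 16 mice was sequenced as 4 pooled libraries, and per the submitters' processing notes fastp 0.23.2, STAR 2.5, HTSeq 0.6.1 and mm10 were used. The authors deposited unnormalized read counts per gene, and FPKM that they made from these counts: all 69722 values above 0 were within 0.01% of those recomputed from count, gene length and total count. The strand setting of the counting is not given there. The 10 genes, the related lists, the motifs and the markers were chosen with earlier results of these data known.

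The tools were edgeR 4.0.16, DESeq2 1.42.0 and limma 3.58.1 in R 4.3.3, and plots were made with Python 3.11.15 and matplotlib 3.10.9. Counts were scaled by total count and a TMM factor (between 0.9759 and 1.029). The factors were taken from the genes that passed the filter; factors from all listed genes had been computed first, and the change was made after both sets of results had been seen. Log2 ratios used a prior of 0.5 counts. Intervals cover counting error only, because each group is 1 library. They can be too narrow even for that, because reads without molecular identifiers can be copies of 1 molecule. Intervals of log2 ratios were Clopper-Pearson, and those of CPM were exact Poisson intervals. Those of the difference between IT ratios were normal, from the counting variances of the 4 libraries. The additive model had 3 coefficients and 1 residual degree of freedom. The scripts were tested on simulated data. Alternatives were other scalings, FPKM with a pseudocount of 1 or 0.1, a filter at 5 CPM or none, a 1.5-fold threshold, DESeq2, limma-voom, a fit without robust estimation, and 1 term alone with or without each library.

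All 10 genes were named, and of each related list at most 4 genes by the size of the FS versus VS ratio, plus all partners. The 5 genes of most similar pattern were taken by the smallest root mean square distance. The genes with a promoter motif were added after the ratios were known. So were, as named genes outside the rule above, Alg12, Pdia2 and the UPR regulators Atf4, Ddit3, Atf6 and Ern1. Promoter sequences were from RefSeq on GRCm38.p6, where Ero1l and Ero1lb are named Ero1a and Ero1b. Coordinates are those deposited with the counts; 3 of the 10 genes have the same start and end in GENCODE M21. Protein sequences were not used here.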

Additional observations from a re-analysis of the deposited data

Results flagged for a closer look

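For 4 of the 10 genes the IT log2 ratio had opposite signs in the vehicle and the fibril pair. Neither counting interval included 0 for these genes. For Ero1lb the sign in VI versus VS was marginal, since the lower bound rounds to 0.00 and the ratio was 0.20 with total counts. The share of all genes that meet the same rule was not computed, so whether 4 of 10 is unusual cannot be told. The difference, fibril minus vehicle, was −0.98 for Ero1l (0.73 in VI versus VS, −0.24 in FI versus FS), −0.84 for Creld2 (0.40 and −0.45), −0.80 for Ero1lb (0.22 and −0.58) and −0.32 for P4hb (0.12 and −0.20). With 1 library in each group the differences were not tested. Of all genes, 20% had a lower difference than P4hb.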

How the results depend on the processing

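A fold threshold of 1.5 gave 7 of the 10 genes in FS versus VS (9.81% of all genes higher), 5 in FI versus VI (7.78%) and 1 in VI versus VS (5.38%). In FI versus VI the count above 2-fold was 1 with total counts and 1 with FPKM at a pseudocount of 1 or 0.1, since Pdia4 lies at the threshold. The 4 genes called for amyloidosis were also called by every alternative that kept both terms; the count was 5, adding Ero1lb, with DESeq2, limma-voom, DESeq2 size factors, total counts or no robust estimation (3.99%, 5.97%, 6.35%, 6.56% and 5.26% of all genes called), and 6 with no filter (7.62%), which added Ero1lb and Fkbp14. TMM factors from all listed genes, an alternative added after seeing the data, gave 4, among 540 genes of all called in place of 587. With amyloidosis as the only term the count was 1, among 8 of all genes, and leaving out 1 library in turn, again with 1 term, it was between 0 (without VS, among 0 of all genes) and 2 (without FI, Creld2 and Pdia4, among 44), and 1 (Creld2) without VI (among 37) or FS (among 11); the lone library is then assumed to vary like the others. Adjusted p for Creld2 lay between 1.14e-55 and 0.00957 with both terms and between 0.0248 and 0.0954 with 1. No gene of the 10 was called for IT in any setting that kept both terms, or with IT as the only term. At an unadjusted p below 0.05 there were up to 2, in edgeR with total counts. The share of all genes at that unadjusted threshold was not computed for the alternatives. No ratio that was clear of 0 changed sign. Under the other scalings and FPKM, 178 ratios of single genes stayed within their counting interval and 22 fell outside it. In FI versus FS with total counts, Pdia3 was at −0.08 and Pdia4 at −0.56, both outside. The counting intervals therefore do not cover the choice of scaling. No paired analysis was possible because each group is 1 pooled library and no replicate number is shared. Depth limits Fkbp14 most, with at most 145 counts.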
